A study of Mus musculus with 10 samples.

Results

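The miRNAs described here are miR-99a, miR-100 and miR-99b of the miR-99/100 family and miR-125a-5p, miR-125a-3p and miR-125b-5p of the miR-125 family, read by 6 of the 1040 probes with mouse miRNA names on the array (mmu-miR-99a, mmu-miR-100, mmu-miR-99b, mmu-miR-125a-5p, mmu-miR-125a-3p and mmu-miR-125b-5p). They were chosen by name, as the miRNAs of the clusters that join a miR-99/100 gene, a let-7 gene and a miR-125 gene, with let-7 itself left out. Total RNA came from mIMCD-3 cells, an immortalized mouse epithelial line derived from the inner medullary part of the collecting duct. The 2 groups were 5 samples given 100 nM aldosterone and 5 samples given vehicle (ethanol). Cells of both groups had been grown to confluence on transwell dishes, which lets them polarize, and then kept in hormone-free medium. The length of the treatment is not given in the sources used here, and the labels do not tell whether each sample was a culture of its own. The p-values therefore rest on the spread among these 10 arrays, part or all of which may be technical.

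A miRNA binds messenger RNAs mainly through its seed, bases 2 to 8, and lowers their translation and stability. Mammals carry 3 copies of an ancient cluster in which a miR-99/100 gene, a let-7 gene and a miR-125 gene lie one after the other. miR-125 is the relative of lin-4 of Caenorhabditis elegans and, like let-7, is tied to the passage from early to differentiated cell states, while miR-99/100 is known for targeting the growth kinase mTOR. In human endothelial cells miR-125a-5p and miR-125b-5p were described as repressors of endothelin-1, a peptide that collecting duct cells also make.

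The mature sequences show how close the probes' targets are to each other. They were taken from RefSeq (GRCm38.p6), where all 6 names were matched, an unsuffixed name being the 5p arm. The seed is in capitals.
miR-99a: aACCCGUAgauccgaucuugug
miR-100: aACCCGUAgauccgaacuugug
miR-99b: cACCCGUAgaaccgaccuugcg
miR-125a-5p: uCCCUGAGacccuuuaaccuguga
miR-125b-5p: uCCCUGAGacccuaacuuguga
miR-125a-3p: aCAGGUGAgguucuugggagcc

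The 3 members of the miR-99/100 family shared one seed, and no other of the 1679 mature mouse names in the table had it. miR-99a and miR-100 were identical at 21 of 22 bases and differed by U16A, counted from the 5′ end with the base of miR-99a first. miR-99b was identical to miR-99a at 18 of 22 bases and differed by A1C, U11A, U16C and U21C. miR-125a-5p and miR-125b-5p shared their first 13 and last 5 bases, and their seed was found in 5 mature names, of which miR-351 was the only other one on the array. miR-125a-3p had a seed of its own. Whether the probe for one of these close relatives also binds the other was not tested.

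On chromosome 17, Mir125a starts 624 bases after Mir99b, with Mirlet7e between them. miR-99b lies at chr17:17830194-17830215 and the 2 arms of Mir125a at chr17:17830817-17830840 and chr17:17830855-17830876, all on the plus strand. On chromosome 16 Mir125b-2 starts 47.3 kb after Mir99a, and on chromosome 9 Mir125b-1 starts 50.5 kb after Mir100. miR-125b-5p therefore has 2 source genes with the same mature sequence, at chr9:41581940-41581961 and chr16:77646279-77646300, which its probe cannot tell apart. miR-99a lies at chr16:77598940-77598961 and miR-100 at chr9:41531437-41531458.

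The hairpin of Mir125a (chr17:17830812-17830879, plus strand) is shown because 2 of the 6 probes read its arms. The capitals mark miR-125a-5p at bases 6 to 29 and miR-125a-3p at bases 44 to 65.
Mir125a: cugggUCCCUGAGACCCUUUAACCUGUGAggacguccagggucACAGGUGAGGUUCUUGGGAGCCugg

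All 6 probes were detected on all 10 arrays, as were 244 of the 1040 mouse probes, where detection means that neither duplicate spot fell under the threshold the authors set from the blanks. The authors' background-subtracted intensities of the 6 ranged from 11.3 to 106.3, with a median of 40.4, and the dimmest array of each probe lay 9.45 to 23.4 SDs of the blank spots above their mean. Brightness differed between arrays. Before scaling, the median over probes detected on all arrays was 15.4 to 57.8 with aldosterone and 9.69 to 34.3 with vehicle. In each same-numbered pair the aldosterone array had the higher median (22.8 against 21.4 in replicate 1, 57.8 against 34.3 in replicate 3). Brightness thus ran with treatment, and the cause of this was not tested. The dimmest array was vehicle replicate 2, with 275 detected mouse probes against a median of 421 over all arrays. The epithelial markers miR-200a, miR-200b and miR-429 were detected on all 10 arrays, and miR-200c and miR-141 on 2 and 1. Of markers of other cell types, 3 of 4 muscle probes, 3 of 4 blood probes and 1 of 2 neuron probes were detected on no array, miR-206 on all 10, miR-126-3p on 9, miR-9 on 8, miR-126-5p on 2, and miR-451 and miR-122 on 1 each. Normalized intensity below means intensity above background after quantile normalization of the arrays, and a log2 change is on the log2(intensity + 50) scale, which understates the change of probes as dim as these. Since probes differ in brightness for reasons of their own, no level is compared between miRNAs.

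The comparison of aldosterone with vehicle asked whether the hormone altered these miRNAs. None of the 6 passed the threshold of an adjusted p under 0.05 (limma, Benjamini-Hochberg over 430 tested probes), as none of all tested probes did (0%). At an unadjusted p under 0.05 were 0 of the 6 and 1.86% of all tested probes, or 0 of the 6 and 4.42% with the replicate number as a block. The 2 probes with a higher mean with aldosterone were miR-99a and miR-125a-3p, the other 4 had a lower mean, and the median log2 change was -0.09 for the 6 and 0.00 for all tested probes. The ranges of the 2 groups overlapped for each of the 6, and 0% of all tested probes had groups that did not overlap.

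miR-99a, transcribed from chromosome 16, had normalized intensities of 55.6, 30.9, 37.6, 39.0 and 47.9 in aldosterone replicates 1 to 5, against 68.3, 36.9, 26.2, 27.4 and 43.0 in vehicle replicates 1 to 5. Replicate 1 was the highest in both groups, and the groups overlapped over most of their range. The means were 42.2 ± 9.64 with aldosterone and 40.4 ± 17.1 with vehicle (SD, n = 5 each). The log2 change was 0.04 (SE 0.12, 95% interval -0.24 to 0.32; limma adjusted p = 0.953), with aldosterone higher in 3 of 5 same-numbered pairs. Its 2 lowest values rest on spots that disagreed: the duplicate spots of vehicle replicate 3 read 34.1 and 86.0 before background subtraction (CV 90.2%), and those of vehicle replicate 4 had a CV of 46.9%, where the median CV of the 6 probes was 9.22%.

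miR-100, the chromosome 9 relative with a single different base, had values of 48.8, 27.9, 33.4, 35.0 and 45.8 with aldosterone, against 64.6, 35.0, 37.6, 33.4 and 37.6 with vehicle. Replicate 1 was again the highest in both groups, and in vehicle it stood far from the other 4. The means were 38.2 ± 8.80 with aldosterone and 41.6 ± 12.95 with vehicle (SD, n = 5 each), a log2 change of -0.05 (SE 0.10, 95% interval -0.27 to 0.17; limma adjusted p = 0.953). Without vehicle replicate 1 the log2 change was 0.03.

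miR-99b, from the compact cluster on chromosome 17, had values of 42.5, 57.0, 39.0, 44.3 and 62.7 with aldosterone, against 42.5, 126.7, 59.2, 39.6 and 48.8 with vehicle. One array set the vehicle mean: replicate 2 was more intense than any other array, and the remaining 4 vehicle values lay within the aldosterone range. The means were 49.1 ± 10.2 with aldosterone and 63.3 ± 36.2 with vehicle (SD, n = 5 each). The log2 change was -0.15 (SE 0.18, 95% interval -0.55 to 0.25; limma adjusted p = 0.944), and it was 0.02 without vehicle replicate 2.

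miR-125a-5p, which shares that cluster, repeated this pattern, with values of 43.0, 47.1, 45.8, 41.6 and 44.3 with aldosterone, against 50.7, 102.1, 39.0, 41.6 and 45.1 with vehicle. The 5 aldosterone arrays lay close together (44.4 ± 2.18), while vehicle replicate 2 carried the vehicle mean of 55.7 ± 26.3 (SD, n = 5 each). The log2 change was -0.13 (SE 0.13, 95% interval -0.44 to 0.17; limma adjusted p = 0.944), and it was 0.01 without vehicle replicate 2. Before scaling, the authors' background-subtracted intensities of that array were 49.9 for miR-99b and 39.6 for miR-125a-5p, neither of them the highest of its group. Vehicle replicate 2 was the dimmest array, and the part of the normalization in its high normalized values was not tested.

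miR-125b-5p, the product of 2 genes, had values of 70.0, 42.5, 34.2, 42.5 and 61.2 with aldosterone, against 79.0, 80.9, 42.5, 45.1 and 53.8 with vehicle. Vehicle was higher in 4 of 5 pairs, but the groups overlapped, since replicates 1 and 5 with aldosterone exceeded 3 vehicle arrays. The means were 50.1 ± 14.9 with aldosterone and 60.3 ± 18.5 with vehicle (SD, n = 5 each). The log2 change was -0.14 (SE 0.13, 95% interval -0.44 to 0.17; limma adjusted p = 0.944), and it was -0.05 without replicate 2 in both groups.

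miR-125a-3p, the other arm of the Mir125a hairpin shown above, had values of 57.0, 62.7, 45.1, 55.6 and 41.6 with aldosterone, against 41.6, 29.4, 38.4, 57.0 and 39.6 with vehicle. Aldosterone was higher in 4 of 5 pairs, and the widest gap was in replicate 2. The means were 52.4 ± 8.76 with aldosterone and 41.2 ± 9.99 with vehicle (SD, n = 5 each). The log2 change was 0.17 (SE 0.08, 95% interval -0.02 to 0.36), the largest of the 6 in either direction, with a limma p of 0.0713 before and 0.944 after adjustment. Leaving out single arrays moved it between 0.13 (without vehicle replicate 2) and 0.24 (without vehicle replicate 4, a limma p of 0.0107 before and 0.973 after adjustment), and without aldosterone replicate 5 it was 0.21 (a limma p of 0.0385 before and 0.971 after adjustment). Without replicate 2 in both groups it was 0.09, and without replicate 4 in both groups 0.23 (a limma p of 0.0259 before and 0.955 after adjustment). Under an unadjusted limma p of 0.05 were 6 of 430 tested probes without vehicle replicate 4 and 6 without aldosterone replicate 5. Without replicate 4 in both groups there were 5 of 430. The unadjusted limma p of miR-125a-3p was 0.132, 0.157, 0.0625 and 0.126 without aldosterone replicates 1, 2, 3 and 4. In the quantile-normalized values none of the 6 was higher or lower in all 5 pairs, as 3.72% and 2.33% of all tested probes were. In the authors' background-subtracted intensities, before any scaling, miR-125a-3p was higher with aldosterone in 5 of 5 pairs (medians of 51.5 with aldosterone and 26.9 with vehicle), as were 48.8% of the probes detected on all arrays, and the other 5 miRNAs were higher in 3 or 4 of 5.

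**Figure D1:**
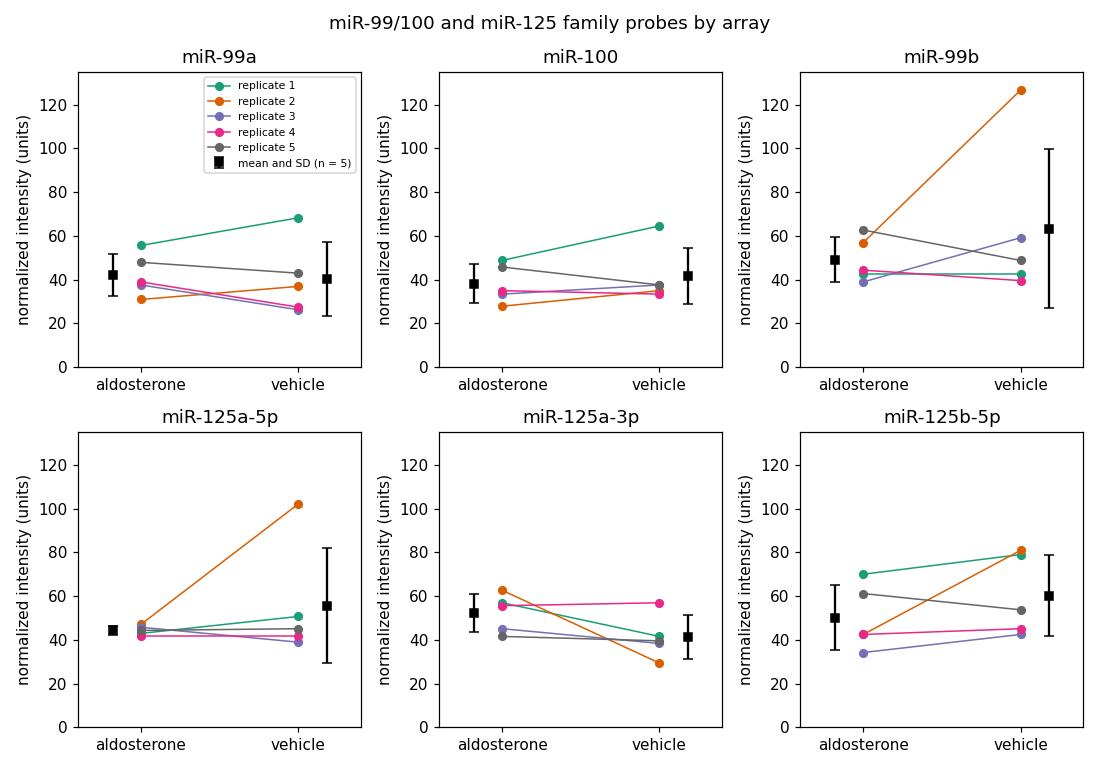
Normalized intensity (intensity units above background) of each of the 6 miRNAs on the 10 arrays, aldosterone left and vehicle right; lines join samples with the same replicate number, and squares with bars are the mean and SD of 5 arrays. Replicate 2 with vehicle reached 126.7 for miR-99b and 102.1 for miR-125a-5p, replicate 1 was the highest in both groups for miR-99a and miR-100, and the groups overlapped for all 6.

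The scaling of the arrays changed the sign for 5 of the 6 miRNAs. Before scaling, the aldosterone array was the brighter one of each same-numbered pair. Without normalization between arrays, where 96.0% of all tested probes were higher with aldosterone, all 6 had log2 changes above 0, from 0.10 for miR-99b to 0.375 for miR-125a-3p. With arrays scaled to their 75th percentile, where 13.02% of the tested probes had a higher mean, miR-125a-3p alone of the 6 was above 0 (0.12). With spike control scaling, where 75.3% of all tested probes were higher, all 6 were above 0, and with cyclic loess, where 50.2% were, miR-99a and miR-125a-3p were. miR-125a-3p was the one member on the same side under each of these scalings. In the authors' deposited table, whose log2 values carry no offset, its log2 change was 0.82 with an unadjusted limma p of 0.0389 and an adjusted p of 0.573, where 5.58% of all tested probes had an unadjusted p under 0.05 85.6% were higher and the median change of all tested probes was 0.31.

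**Figure D2:**
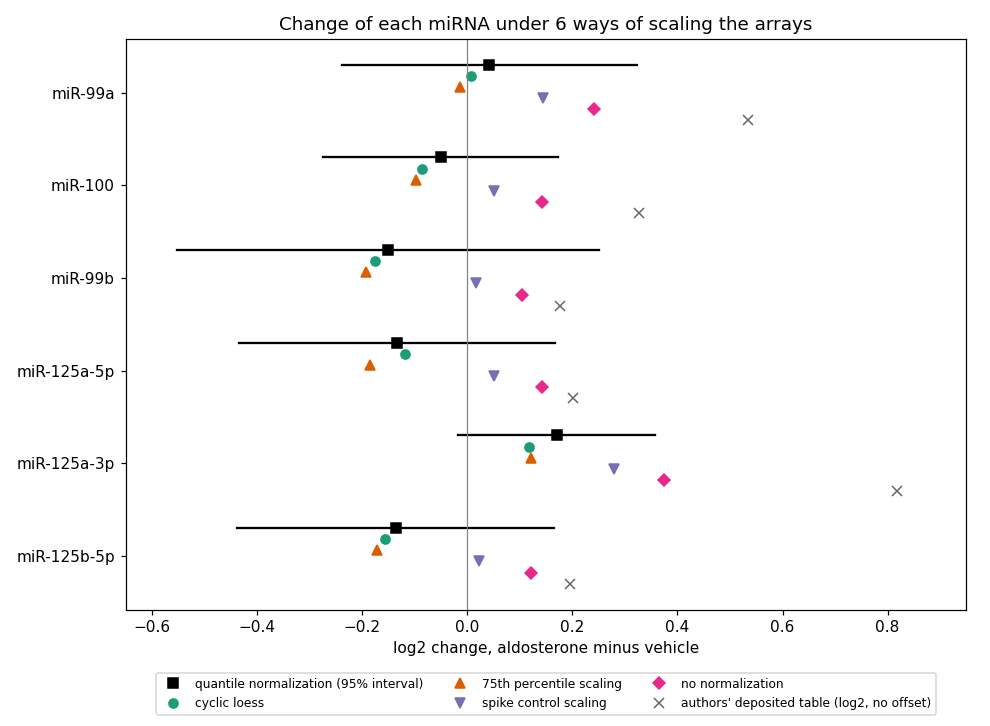
Log2 change (aldosterone minus vehicle) of each miRNA under 6 ways of scaling the arrays; the line is the 95% interval of the quantile-normalized fit, on the log2(intensity + 50) scale except for the authors' deposited table. All 6 intervals include 0, and the symbols of miR-125a-3p alone all lie right of 0, from 0.12 to 0.82.

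All 15 pairs of members were compared by the difference between 2 miRNAs within an array. A factor common to the array does not cancel fully in this difference, because an offset of 50 is added before the log2. The difference is read as unequal change, which does not tell which of the 2 miRNAs differed. None of the 15 passed (exact permutation test over all splits into 5 and 5, two-sided, Benjamini-Hochberg over the 15; smallest p = 0.0794, smallest adjusted p = 0.524), and the smallest p that such splits allow is 0.00794. After adjustment over the 15, a single pair of miRNAs at that p could not pass unless others lay as low. With the arrays paired by replicate number, the exact sign-flip test gave a smallest p of 0.125 and cannot go below 0.0625, so that it could not pass the threshold for any pair of miRNAs. The pair with the smallest p was miR-99a minus miR-125b-5p, with a mean difference of -0.11 ± 0.11 with aldosterone and -0.29 ± 0.18 with vehicle (log2, SD, n = 5 each; exact permutation p = 0.0794, adjusted p = 0.524). For this pair aldosterone was higher in 3 of 5 pairs.

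The 2 arms of Mir125a come from one hairpin, and their within-array difference had a wide spread in vehicle. miR-125a-5p minus miR-125a-3p was -0.20, -0.22, 0.01, -0.21 and 0.04 with aldosterone, against 0.14, 0.94, 0.01, -0.22 and 0.09 with vehicle (log2, replicates 1 to 5). Vehicle replicate 2 stood far above the other 9 arrays, which overlapped between the groups. On that array, the dimmest, the authors' background-subtracted intensity of miR-125a-3p was 11.3. The SD of this difference over all arrays was 0.345 with quantile normalization and 0.223 without normalization. The difference of the means was -0.30 (exact permutation p = 0.135, adjusted p = 0.524), and leaving out single arrays moved it between -0.12 (without vehicle replicate 2) and -0.43 (without vehicle replicate 4, exact permutation p = 0.0238, adjusted p = 0.268). The neighbours miR-99b and miR-125a-5p had a mean difference of 0.07 ± 0.14 with aldosterone and 0.08 ± 0.17 with vehicle (n = 5 each; exact permutation p = 0.865).

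miR-99a and miR-100, which differ in 1 base, tracked each other most closely of all 15 pairs under quantile normalization, with an SD of the within-array difference of 0.095 over the 10 arrays, against 0.148 to 0.416 for the other 14 pairs. Without normalization that SD was 0.105, and that of miR-100 and miR-125b-5p was smaller, at 0.096. The difference was 0.10, 0.06, 0.07, 0.07 and 0.03 with aldosterone, against 0.05, 0.03, -0.20, -0.11 and 0.09 with vehicle. The 2 low vehicle values are the arrays on which the duplicate spots of miR-99a disagreed, and on the other 8 arrays the difference lay between 0.03 and 0.10. Its mean was 0.06 ± 0.02 with aldosterone and -0.03 ± 0.12 with vehicle (n = 5 each; exact permutation p = 0.143, adjusted p = 0.524).

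**Figure D3:**
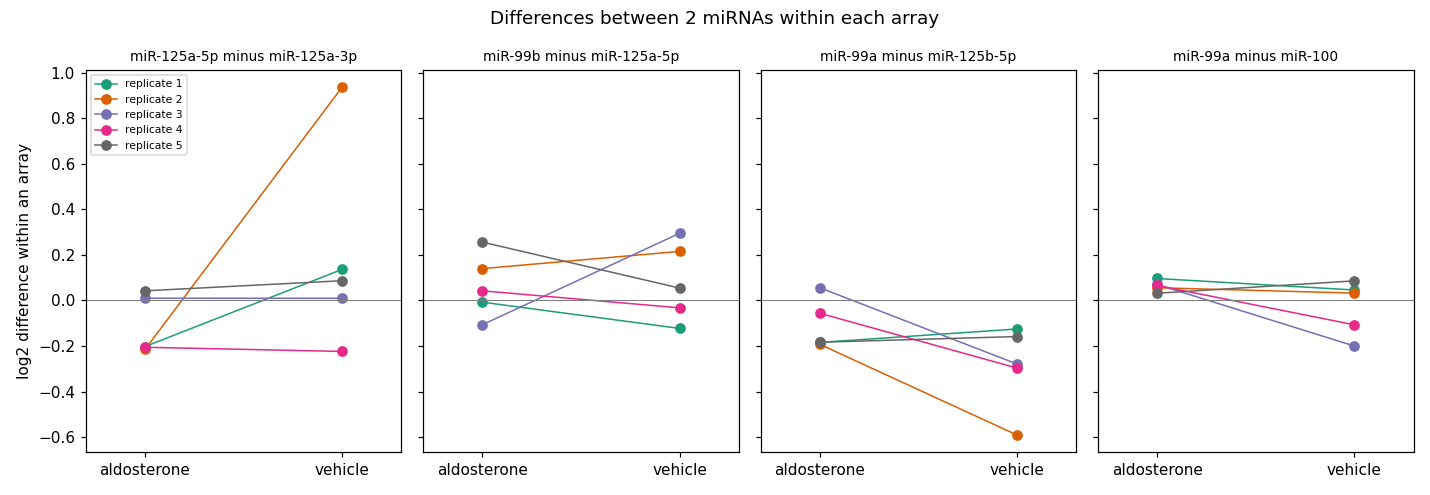
Difference of log2 intensity between 2 miRNAs within each array for 4 pairs, aldosterone left and vehicle right, with lines joining same-numbered samples. After quantile normalization, miR-125a-5p minus miR-125a-3p reached 0.94 in vehicle replicate 2, the dimmest array, and was at most 0.14 elsewhere. miR-99a minus miR-100 lay between -0.20 and 0.10 on all arrays.

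Correlations over the 10 arrays are given as a description without p-values, because arrays share replicate numbers, treatment and the normalization. miR-99a and miR-100 had a Pearson r of 0.88 (Spearman 0.73), 0.88 without vehicle replicate 2 and 0.89 with cyclic loess. Without both arrays of replicate 1, the farthest from the median for miR-99a, r was 0.59. miR-100 ranked first of the 429 other tested probes by likeness to miR-99a, and miR-99a ranked 2 of 429 for miR-100. These ranks were 2 and 4 without vehicle replicate 2, 2 and 1 with cyclic loess, and 3 and 6 without normalization.

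miR-125b-5p, whose genes lie beside both, had an r of 0.68 with each of miR-99a and miR-100 (Spearman 0.52 and 0.63), and 0.86 and 0.91 without vehicle replicate 2. Without replicate 1 in both groups, r was 0.39 and 0.40. The chromosome 17 neighbours miR-99b and miR-125a-5p had an r of 0.87, but a Spearman rho of 0.15 and an r of -0.16 without vehicle replicate 2, so that 1 array carried the value. It was 0.59 with cyclic loess. miR-125a-3p had an r of -0.61 with miR-125a-5p from the same hairpin (Spearman -0.18), and -0.07 without vehicle replicate 2.

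**Figure D4:**
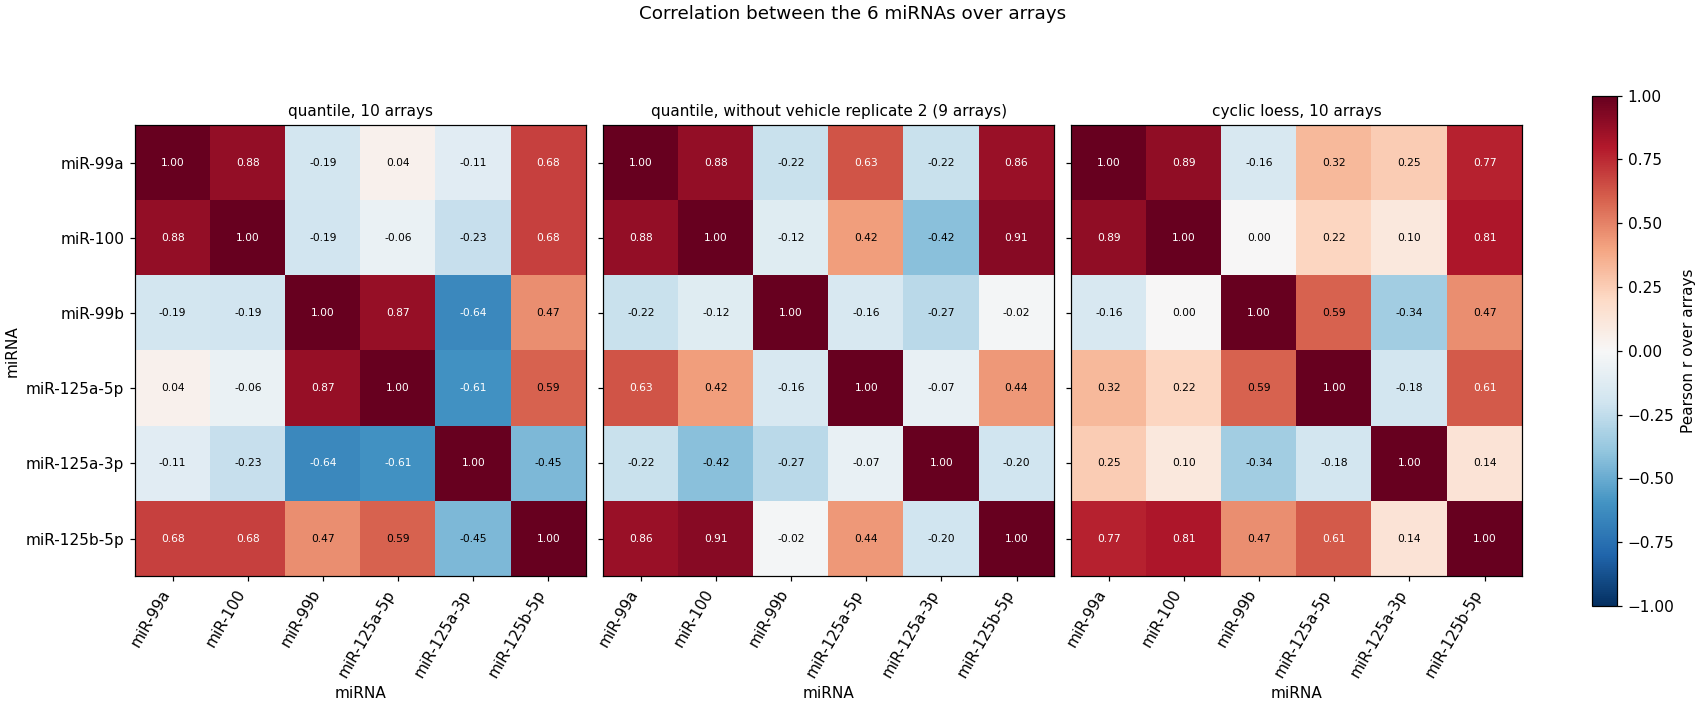
Pearson r between the 6 miRNAs over arrays, red for positive and blue for negative, after quantile normalization on 10 arrays, without vehicle replicate 2 (9 arrays), and after cyclic loess on 10 arrays. miR-99a and miR-100 stayed at 0.88 to 0.89 in all 3 panels, while miR-99b and miR-125a-5p were at 0.87, -0.16 and 0.59.

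Outside the 6, the probes most like miR-99a after miR-100 were miR-22* (r = 0.86) and miR-25 (0.83), and both were also among the 3 most like miR-100 (miR-25 at 0.91 and miR-22* at 0.88). With cyclic loess miR-25 was at 0.43 with miR-99a and 0.53 with miR-100, and miR-22* at 0.89 and 0.84. For miR-99b these were miR-140* (0.95), the shared probe of miR-669a-5p and miR-669p (0.95) and miR-1186b (0.93). miR-125a-5p was most like miR-331-3p (0.98), the same shared probe (0.97) and miR-1907 (0.97). For both miRNAs these values depended on vehicle replicate 2. Without it, miR-99b had 0.66 with miR-140*, 0.66 with the shared probe and 0.72 with miR-1186b, and miR-125a-5p had 0.57 with miR-331-3p, 0.46 with the shared probe and 0.76 with miR-1907. miR-125a-3p was most like miR-705 (0.93, and 0.91 without that array), miR-652* (0.92) and miR-1274a (0.86), and miR-125b-5p was most like miR-504* (0.83), miR-3096-3p (0.80) and miR-92a-2* (0.79).

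The sample titles carry 5 codes, each shared by an aldosterone and a vehicle sample and used as the replicate number, and the spread between codes was tested with treatment in the model. miR-99a had code means of 62.0, 33.9, 31.9, 33.2 and 45.4 for replicates 1 to 5, and miR-100 had 56.7, 31.4, 35.5, 34.2 and 41.7. Replicate 1 was the highest for both, and the aldosterone and vehicle values of replicate 1 lay within 6.33 and 7.89 of these means. None of the 6 miRNAs passed (limma F test, adjusted p = 0.197 for both miR-99a and miR-100 and 0.267 to 0.65 for the other 4), and 2.33% of all tested probes did. At an unadjusted p under 0.05 were miR-99a (0.0252) and miR-100 (0.0247) and 19.5% of all tested probes. Without replicate 1 in both groups these p-values were 0.168 for miR-99a and 0.219 for miR-100. Without replicate 2, miR-125b-5p passed (limma adjusted p = 0.0419), as did 6.51% of all tested probes, while 0.465% did without replicate 4, 0.698% without replicate 3 and 1.16% without replicate 1.

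The call for codes depended on the scaling. miR-99a passed with cyclic loess (limma adjusted p = 0.0442), as 11.4% of all tested probes did, and miR-99a and miR-100 passed with 75th percentile scaling (0.0499 and 0.0401; 4.65% of all). The same pair passed in the authors' deposited table (0.0114 and 0.0102; 29.8% of probes with a value on every array). With spike control scaling miR-99b, miR-100 and miR-125b-5p passed (32.6% of all), and without normalization all but miR-125a-5p did (51.6% of all). What the title codes stand for is not given in the sources used here.

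The partners of these miRNAs, the let-7 miRNAs and the minor strands of the clusters with let-7b and miR-351, were on the array through 15 probes. Of these, 5 were detected on all arrays, 3 on none and 8 were tested, and 0 of 8 passed (limma). The log2 changes were above 0 for 4 and below 0 for 4, with a median of -0.01 against 0.00 for all tested probes. let-7c, which lies 721 bases after Mir99a but also has a gene elsewhere, averaged 478 ± 56.8 on aldosterone arrays against 538 ± 119 on vehicle arrays (change of -0.14, SE 0.14). let-7a, made among others by the gene beside Mir100, averaged 680 ± 158 on aldosterone arrays against 661 ± 171 on vehicle arrays (0.04, SE 0.19). After quantile normalization let-7a had the same value, 847, on aldosterone replicates 3 and 5 and vehicle replicates 1 and 3. The authors' background-subtracted intensities of let-7a on those arrays ran from 690 to 1840. let-7e, between Mir99b and Mir125a, was at 100.01 ± 14.7 with aldosterone and 96.4 ± 28.4 with vehicle (0.05, SE 0.13), and let-7b was at 344 ± 41.8 with aldosterone and 350.2 ± 27.3 with vehicle (-0.03, SE 0.08), all SD over n = 5.

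Over the 10 arrays let-7e had an r of -0.23 with miR-99b, -0.38 with miR-125a-5p and -0.23 with miR-125a-3p, its neighbours on chromosome 17. Without vehicle replicate 2 these were 0.41, 0.17 and -0.68. The r of miR-100 with let-7a was 0.53 and that of miR-99a with let-7c 0.05, where both let-7 probes also read products of genes outside these clusters. miR-351, the other carrier of the miR-125 seed, averaged 12.7 ± 2.09 on aldosterone arrays against 13.5 ± 2.88 on vehicle arrays (change of -0.02, SE 0.03; n = 5 each). Of the minor strands, miR-99b* was detected on 9 arrays at 6.96 ± 0.43 with aldosterone and 6.88 ± 1.64 with vehicle, let-7b* and let-7e* on 5 arrays each, the shared probe of let-7a-1* and let-7c-2* and that of let-7c-1* on 2 each, and miR-125b-1-3p and let-7a-2* on 1 each. miR-99a*, miR-100* and miR-125b-2-3p were detected on no array. miR-125a-3p was thus the one arm of the 3p side among these clusters that was detected on every array.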

How the data were processed

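According to a note deposited by the authors, the array files give a raw intensity for each spot, from which a mean over blank spots was taken off by the authors, who averaged duplicate spots above that mean plus 2 SD, and scaled the median of the averages to 25. Per the labels' protocols, RNA was extracted with TRIzol and labelled with Hy5. The scanner is not given in the sources used here. The authors' CV of duplicate spots is a ratio, the SD over the mean, given here in percent. The deposited table's scale was known, since its 6454 values equal the normalized column (largest difference 0) and all 10 of its columns have a median of 25.

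Raw intensities were corrected with normexp (offset 50), log2 values of the 2 spots were averaged without 4 spots flagged as poor, and arrays were quantile-normalized (R 4.3.3, limma 3.58.1). Mouse probes with both spots detected on at least 5 of 10 arrays were tested, 430 of 1040, by lmFit and eBayes, calling a probe at an adjusted p under 0.05 (Benjamini-Hochberg). Replicate numbers come from codes shared by the sample titles. Arrays with the same number deviated together from the means of their groups (r = 0.20 to 0.81, all 5 over 0.1), and a fit with the numbers as a block was therefore given beside the main fit. The main fit and its intervals did not pair the samples. The aldosterone array of replicate 5 correlated better with another number (0.27) than with its own (0.20). The fits were tested on simulated data with independent spread and planted changes larger than those seen for the 6 miRNAs. Planted changes as small as theirs were not simulated. Alternatives were other scalings (none, cyclic loess, 75th percentile, spike controls), offsets of 10 and 100, other filters, the deposited table, the replicate block and leaving out each array or number. Printed intensities are 2 to the normalized log2 value, minus the offset. All 6 members, all partners on the array and the 3 most correlated probes per member are named. Members and lists were chosen with earlier results of these data known. The number of arrays limits the precision.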

Additional observations from a re-analysis of the deposited data

Results flagged for a closer look

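On the log2 scale, in 4 of 42 groups of 5 arrays 1 array stood far from the other 4, by a gap of over 0.71 of the group's range, and in these 4 it was the highest. Chance alone gives about 1 in 20 for a far array at either end in independent groups with normal values. The 42 groups share arrays and probes, so that this rate does not hold for them as a set. On the intensity scale the vehicle group of miR-99b was past this limit too, with replicate 2 at 126.7 and a gap of 0.775 of the range (0.709 on the log2 scale). Normalized intensity of miR-100 in vehicle replicate 1 was 64.6, with the nearest array at 37.6. miR-125a-5p in vehicle replicate 2 was at 102.1, with the nearest at 50.7. miR-351, which has the same seed as miR-125a-5p, was at 18.6 on that same array, with the nearest at 13.3. Before scaling, the authors' background-subtracted intensities there were 7.89 for miR-351 and 39.6 for miR-125a-5p, neither of them the highest in vehicle. Vehicle replicate 2 was the dimmest array, and the part of the normalization in these high values was not tested. The within-array log2 difference of miR-99b minus miR-125a-3p was 0.30 in aldosterone replicate 5, with the nearest array at -0.08.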

How the results depend on the processing

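Between aldosterone and vehicle, none of the 6 miRNAs and none of the 15 within-array differences passed the threshold under any alternative run. For the within-array differences, the exact tests left no single pair of miRNAs able to pass alone. With the replicate block the log2 changes were the same (miR-125a-3p 0.17, adjusted p = 0.744 for it and 0.744 to 0.831 for the 6), and the block changed no call. The 95% intervals with the block were -0.12 to 0.21 for miR-99a, -0.18 to 0.08 for miR-100 and -0.51 to 0.21 for miR-99b. They were -0.42 to 0.16 for miR-125a-5p, -0.03 to 0.37 for miR-125a-3p and -0.35 to 0.08 for miR-125b-5p. Likeness without vehicle replicate 2 or by rank, and codes without each number, were added after the data were seen. The cause of the reversals listed here was not tested. Depth is not defined for arrays, and the dimmest array lay closest to background.

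Log2 changes that turned positive without normalization were 0.10 for miR-99b, 0.14 for miR-100, 0.14 for miR-125a-5p, 0.12 for miR-125b-5p, 0.42 for let-7b, 0.44 for let-7c, 0.077 for miR-351 and 0.0040 for let-7b*. With spike control scaling they were 0.017 for miR-99b, 0.05002 for miR-100, 0.051 for miR-125a-5p, 0.023 for miR-125b-5p, 0.25 for let-7b, 0.27 for let-7c and 0.038 for miR-351, while let-7e* turned to -0.0072. In the authors' deposited table they were 0.18, 0.33, 0.20 and 0.20 for miR-99b, miR-100, miR-125a-5p and miR-125b-5p, 0.39 for let-7b, 0.41 for let-7c and 0.29 for miR-351. Cyclic loess gave -0.16 for let-7a, -0.058 for let-7e and 0.0093 for miR-351. With 75th percentile scaling miR-99a was at -0.014, let-7a at -0.089, let-7e at -0.0030, miR-99b* at -0.052, let-7e* at -0.054 and miR-125a-5p minus miR-125b-5p at -0.013. let-7e* was at -0.0019 with an offset of 10, and miR-125a-5p minus miR-125b-5p at -0.0029 with an offset of 100.

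Between codes, 10 probes and 0 of the 6 passed, against 222 and 5 without normalization, 49 and 1 with cyclic loess, 20 and 2 with 75th percentile scaling, 140 and 3 with spike control scaling, and 98 and 2 in the authors' deposited table. Likeness was 0.58 with cyclic loess and 0.68 by rank for miR-99b and miR-140*, 0.61 and 0.80 for miR-125a-5p and miR-331-3p, 0.53 with cyclic loess for miR-100 and miR-25, and 0.99 without normalization for miR-125a-3p and miR-705.

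Runs left out 1 array or 1 replicate number, and for the test between codes only 1 replicate number. Between codes they gave 2 (without number 4) to 28 (without number 2) probes and 0 to 1 members (miR-125b-5p, without number 2). Likeness without vehicle replicate 2 was 0.57 for miR-125a-5p and miR-331-3p and 0.66 for miR-99b and miR-140*. The log2 changes ranged from -0.013 to 0.14 for miR-99a, -0.097 to 0.031 for miR-100, -0.25 to 0.023 for miR-99b, -0.19 to 0.0052 for miR-125a-5p, -0.21 to -0.046 for miR-125b-5p, 0.093 to 0.24 for miR-125a-3p, -0.095 to 0.16 for let-7a, -0.083 to 0.014 for let-7b, -0.0198 to 0.13 for let-7e, -0.018 to 0.019 for let-7e*, -0.032 to 0.0082 for miR-351 and -0.016 to 0.016 for miR-99b*. Within arrays, miR-125a-5p minus miR-125a-3p ranged from -0.43 to -0.099, miR-100 minus miR-125b-5p from -0.0033 to 0.13, miR-125a-5p minus miR-125b-5p from -0.076 to 0.081 and miR-99b minus miR-125a-5p from -0.076 to 0.063.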
